A study of Mus musculus with 9 samples.

Results

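The unfolded protein response and the folding machinery of the endoplasmic reticulum (ER) were followed in glands of the mouse stomach corpus through 33 genes. The genes were chosen by function, as stress sensors, transcription factors, chaperones, disulfide isomerases, lectin chaperones, translocon subunits, degradation factors and targets of ATF4 and CHOP, and all 33 have a row among the 18423 genes of the deposited FPKM table. The choice was made with earlier results of these data known. Poly(A) RNA was sequenced from 9 libraries of 3 genotypes, with 3 libraries each. Arid1a_Het mice carried Atp4bCre; Rosa26NICD; Arid1aflox/+, that is, Cre recombinase under Atp4b, a parietal cell gene, plus a Rosa26 allele encoding the intracellular domain of Notch, and 1 of the 2 copies of Arid1a flanked by loxP. Ctrl mice carried Atp4bCre; Rosa26NICD, so that both of these genotypes hold the Notch transgene and Cre, and WT mice were wild type with neither. Corpus that bore tumours was sampled, or its counterpart in normal stomachs, and glands were scraped off after EDTA, so cells other than those in which Cre is driven are in every library. Age, sex and strain are not stated in the labels. Whether the 3 libraries of a genotype are 3 animals is not stated either, and p-values then reflect how far these libraries spread, part of which may be technical.

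Proteins that enter the ER are folded by the chaperone BiP (Hspa5) and its helpers, by disulfide isomerases and by the lectins calnexin and calreticulin, and those that fail to fold are sent back to the cytosol for degradation. When unfolded proteins build up, the sensors IRE1, ATF6 and PERK switch on transcription factors, among them spliced XBP1, cleaved ATF6, ATF4 and CHOP, which raise chaperone and degradation genes. Chief cells of the corpus fill their cytoplasm with rough ER to secrete pepsinogen, which is why the genes were also set against the chief cell level of each library.

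The best known DNA elements of this response lie just before the start of chaperone genes, and they are shown here so that the letters can be set beside the levels of the genes that carry them. Promoters of 300 bases, 250 before to 50 after the start site, were taken from RefSeq on GRCm38.p6, which matched 27 of the 33 genes. The ER stress response element, ERSE (CCAAT and CCACG with 9 free bases between, either strand), was in 9 of the 27, and in 0.119% of 32851 promoters of the same length. Its short form ERSE-II (ATTGG and CCACG with 1 free base between, either strand) was in Dnajb11 and Herpud1 and in 0.0365% of all promoters. The element bound by ATF4, CARE (TGATGCAA), was in Chac1 and Herpud1 and in 0.895% of all, and the element named UPRE (TGACGTGG) was in 0 of the 27 and 0.676% of all. No 2 elements in a promoter overlapped. The matches are written 5′ to 3′ on the strand that reads as the motif, with the fixed bases in capitals and the free bases in lower case:
Hspa5 ERSE: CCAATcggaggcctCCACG
Hsp90b1 ERSE far from the start: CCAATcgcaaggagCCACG
Hsp90b1 ERSE near the start: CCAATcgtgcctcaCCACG
Creld2 ERSE: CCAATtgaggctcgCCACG
Calr ERSE: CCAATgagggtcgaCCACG
Canx ERSE: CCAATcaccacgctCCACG
Dnajc3 ERSE: CCAATcagcgccaaCCACG
Pdia6 ERSE: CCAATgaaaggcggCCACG
Syvn1 ERSE: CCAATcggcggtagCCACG
Derl3 ERSE: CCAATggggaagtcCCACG
Dnajb11 ERSE-II: ATTGGcCCACG
Herpud1 ERSE-II: ATTGGgCCACG
Hsp90b1 was the gene with 2 exact copies of ERSE. Elements that differ from a motif in a fixed base were not searched for, so a promoter without a match may still hold one. A match describes the letters of a promoter and says nothing of binding in these glands.

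Promoters of 3 genes are given in full, on the strand of the gene, for BiP, for the gene of the list whose levels were most like those of BiP, and for a gene with 2 kinds of element whose levels were not: Hspa5 (chr2:34771840-34772139, plus strand), Creld2 (chr15:88819396-88819695, plus strand) and Herpud1 (chr8:94386179-94386478, plus strand). Capitals mark ERSE in Hspa5 and Creld2, and CARE followed by ERSE-II in Herpud1; in Creld2 the element runs on the opposite strand and so reads reversed, as does CARE in Herpud1:
Hspa5: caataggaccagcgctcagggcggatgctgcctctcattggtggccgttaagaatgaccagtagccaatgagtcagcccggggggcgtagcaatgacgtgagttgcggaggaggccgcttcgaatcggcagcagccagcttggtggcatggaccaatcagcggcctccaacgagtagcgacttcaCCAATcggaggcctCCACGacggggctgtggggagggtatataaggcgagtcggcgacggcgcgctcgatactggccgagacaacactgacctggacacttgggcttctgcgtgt
Creld2: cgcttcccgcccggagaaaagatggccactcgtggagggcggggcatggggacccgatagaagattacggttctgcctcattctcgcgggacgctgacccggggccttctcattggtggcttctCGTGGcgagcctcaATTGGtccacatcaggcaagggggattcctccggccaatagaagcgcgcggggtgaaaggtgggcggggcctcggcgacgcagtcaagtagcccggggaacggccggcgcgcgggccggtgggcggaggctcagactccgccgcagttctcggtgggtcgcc
Herpud1: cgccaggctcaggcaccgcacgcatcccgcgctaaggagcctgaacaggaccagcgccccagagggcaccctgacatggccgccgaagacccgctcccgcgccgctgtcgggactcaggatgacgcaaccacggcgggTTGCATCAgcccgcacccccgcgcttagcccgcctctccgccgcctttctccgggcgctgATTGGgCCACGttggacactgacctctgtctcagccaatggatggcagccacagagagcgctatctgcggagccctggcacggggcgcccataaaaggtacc

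**Figure D1:**
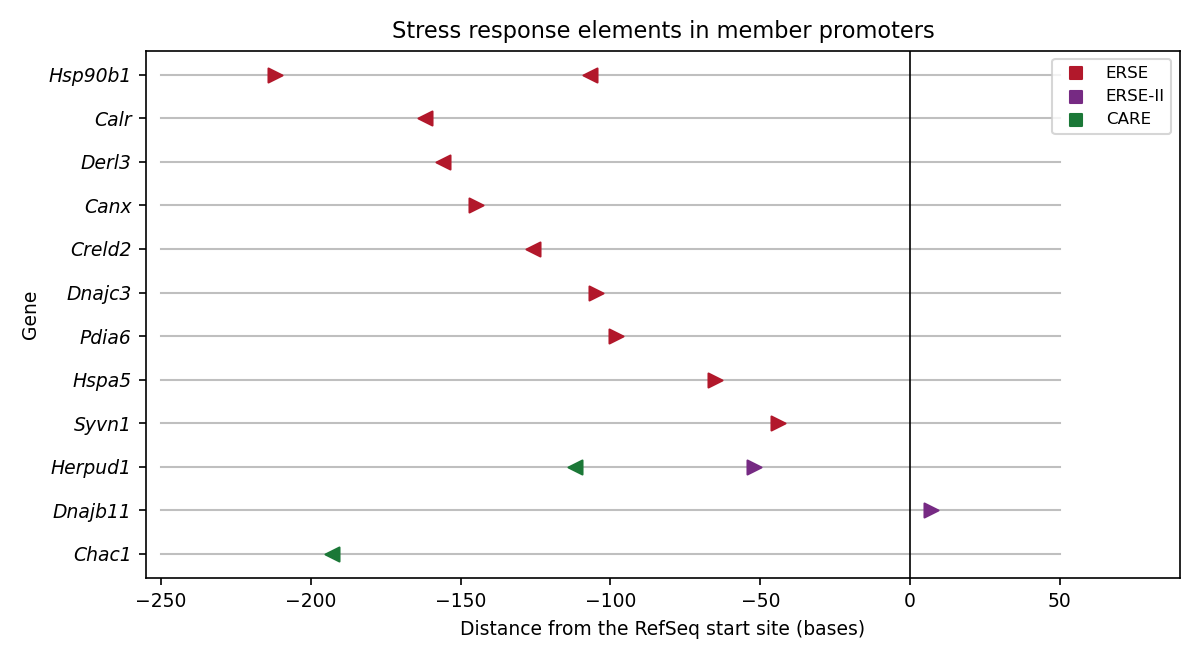
Distance in bases of each element's leftmost base from the RefSeq start site (vertical line) in the 12 genes that hold an element; colours stand for the motif and the direction of a triangle for its strand. ERSE lies between -212 and -44 in 9 genes, and ERSE-II at -52 in Herpud1 and at 7 in Dnajb11.

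Libraries held 22651385 to 29478481 reads. RNA of the pepsinogen gene Pgc varied widely within each genotype. Its share of all FPKM was 3.34%, 17.9% and 1.89% in Arid1a_Het glands and 1.49%, 4.91% and 1.84% in Ctrl glands. In WT glands the share was 2.99%, 16.5% and 8.38%. A list of 6 chief and acinar factors followed Pgc only in part. These factors summed to 129, 202 and 119 FPKM in Arid1a_Het glands and 128, 166 and 78.8 in Ctrl glands. In WT glands they summed to 124, 99.8 and 121, lowest where Pgc was highest. The number of chief cells was not measured. Parietal cell markers, 15 genes, summed to 1512 to 5887 FPKM in Arid1a_Het glands, 1152 to 2071 in Ctrl glands and 4145 to 15473 in WT glands, so the gland identity of the label was met in all libraries, and in bulk RNA fewer cells of a type and less RNA per cell cannot be told apart. Of 25 genes listed for pancreatic acini, Clps was abundant in all libraries, from 691 to 12650 FPKM, and highest in WT 2. The other 24 summed to 1643 FPKM in Arid1a_Het 3 and 3951 in Ctrl 1, against 52.0 to 628 in the other 7 libraries, and 20 of them were highest in Ctrl 1. Ctrb1, an acinar chymotrypsinogen, held 375 FPKM in Arid1a_Het 3 and 1084 in Ctrl 1 and at most 1.70 elsewhere, so those libraries are called the pancreas libraries. Plasma cells, which are rich in ER, left little trace, with Jchain at most 1.84, Mzb1 at most 0.536 and Tnfrsf17 at most 0.0466 FPKM. Arid1a itself held 8.94, 5.90 and 6.96 FPKM in Arid1a_Het glands, 14.9, 13.3 and 16.2 in Ctrl glands and 13.5, 7.79 and 12.0 in WT glands, and Arid1a_Het against Ctrl gave p = 0.1 in an exact two-sided permutation test, the smallest p that 3 against 3 libraries allow.

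The 33 genes spanned a wide range of levels, compared here as FPKM, which is scaled to transcript length. The isomerase P4hb was the highest, with a mean of 635 FPKM over the 9 libraries, and the pseudokinase Trib3 the lowest, with 0.770 FPKM. Of the rest, 7 others averaged over 100 FPKM (Hspa5, Hsp90b1, Pdia3, Pdia4, Pdia6, Calr and Canx), all of them chaperones or isomerases of the ER lumen and membrane. The sensor Ern1, the factor Ddit3, the derlin Derl3 and the glutathione-degrading enzyme Chac1 averaged under 6 FPKM. Chac1 rested on 8 to 72 reads per library and Derl3 on 17 to 165. Together the 33 genes took between 0.587% of all FPKM in WT 2 and 1.52% in Ctrl 3.

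Those ends of the range belong to libraries that stood apart. Ctrl 3 was the highest of the 9 libraries for 17 of the 32 genes tested (53.1%), against 23.8% of all 11209 tested genes, and for 16 (50%, against 21.8%) after median-ratio scaling, which brings libraries to a common level of the typical gene. It held at least 1.5 times the next library for 6 of them, Hspa5, Hsp90b1, Hyou1, Sdf2l1, Creld2 and Syvn1 (18.8%, against 2.62% of all genes). That next library was a pancreas library for each: Ctrl 1 for Hspa5, Hsp90b1, Sdf2l1 and Syvn1, and Arid1a_Het 3 for Hyou1 and Creld2. The part of acinar RNA in those levels was not tested. WT 2, rich in Pgc, was the lowest library for 17 of the 32 (53.1%), close to the 47.6% of all genes, and after the scaling for 6 (18.8%, against 23.4%).

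**Figure D2:**
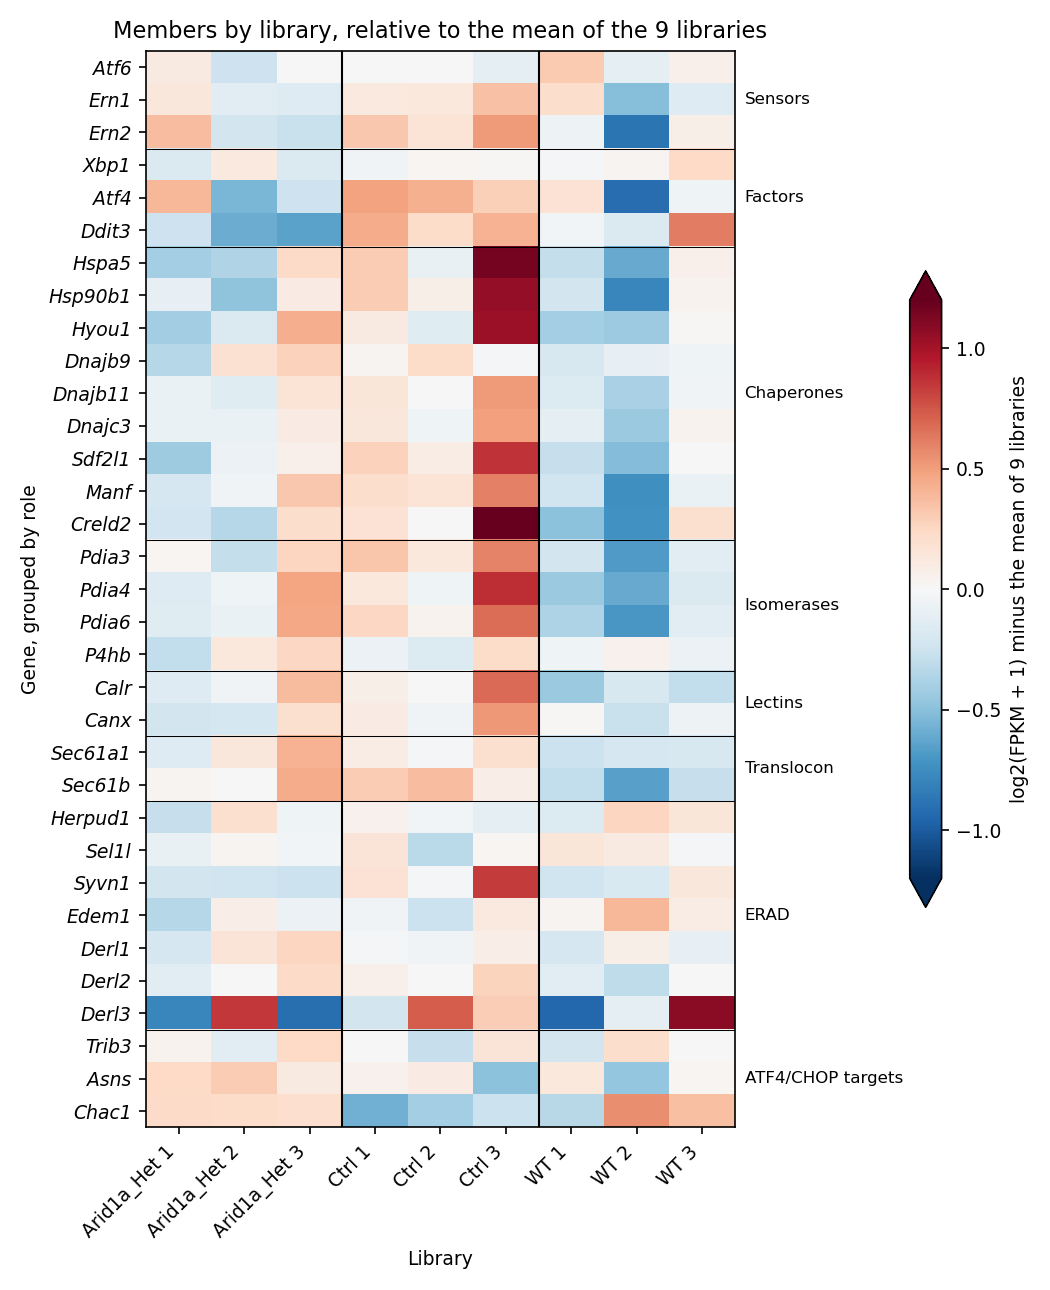
log2(FPKM + 1) of each of the 33 genes (rows, grouped by role) in each library (columns), as the difference from the mean over the 9 libraries. Ctrl 3 is darkest among chaperones and isomerases, where Hspa5, Hsp90b1, Hyou1 and Creld2 stand out, while Xbp1, Sel1l and P4hb stay pale in every library.

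The comparison of Ctrl with WT asks what differs in glands with the Notch transgene. The outcome turned on the fit: 0 of 9 chaperones and 0 of 4 disulfide isomerases passed in the plain fit, and 7 and 3 passed as higher in Ctrl once libraries were paired by number, while 0 of 7 degradation genes and 0 of 3 transcription factors passed in either. In limma on log2(FPKM + 1), with p-values adjusted over all 11209 tested genes, 1 of 32 genes passed as higher, the translocon subunit Sec61b, against 7.01% of all genes, and 0 passed as lower, against 3.04%. WT and Ctrl libraries that share a number deviated together. The labels give the number no meaning as a batch or pair, so the pairing was taken from these data alone. Library 2 also had the largest Pgc share in each genotype (17.9%, 4.91% and 16.5%), and what the block takes up was not tested. With the library number as a block for every genotype, Arid1a_Het included, 11 genes passed as higher (34.4%, against 16.1% of all genes). They were Hspa5, Hsp90b1, Hyou1, Dnajb11, Sdf2l1, Manf, Creld2, Pdia3, Pdia4, Pdia6 and Sec61b. None passed as lower (0%, against 5.97%). The block without Ctrl 3 left 5 of them, Hsp90b1, Creld2, Pdia3, Pdia6 and Sec61b (15.6%, against 7.54%), and 0 lower (against 2.65%). Scaling mattered as much: the median log2 fold change (log2FC) of all genes was 0.24 as deposited and 0.01 after median-ratio scaling, and the block with that scaling left 0 higher, against 9.63% of all genes, and the sensor Atf6 lower (3.12%, against 12.5%). With the block but without the pancreas libraries, 9 genes passed as higher (28.1%, against 18.6%) and 0 as lower (against 6.38%).

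Among the sensors, Ern1 (IRE1 alpha) held 4.84, 3.89 and 3.80 FPKM in Arid1a_Het glands, 4.79, 4.83 and 5.82 in Ctrl glands and 5.17, 2.73 and 3.79 in WT glands. Its relative Ern2 (IRE1 beta), which is largely confined to epithelia that make mucus, was more abundant, at 85.1, 56.3 and 54.5 FPKM in Arid1a_Het glands, 82.5, 73.7 and 94.4 in Ctrl glands and 62.9, 35.3 and 68.9 in WT glands. All Ctrl libraries lay above all WT libraries for Ern2, with log2FC 0.63 and adjusted p = 0.145 in limma, so the difference missed the threshold. Atf6 varied little, from 7.58 to 9.93 FPKM in Arid1a_Het glands, 8.34 to 9.18 in Ctrl glands and 8.44 to 11.6 in WT glands.

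None of the 3 transcription factors passed. Xbp1, whose FPKM sums its spliced and unspliced forms, held 85.3, 105 and 85.3 FPKM in Arid1a_Het glands, 93.5, 97.9 and 97.2 in Ctrl glands and 95.4, 98.7 and 114 in WT glands, and its highest library was 1.34 times its lowest. Atf4, the factor translated when PERK and its kin halt general translation, held 110 ± 7.77 FPKM in Ctrl and 72.8 ± 26 in WT (SD, n = 3), with every Ctrl library above every WT library. Its block-adjusted p of 0.0634 missed the threshold. Ddit3, which encodes CHOP, was low throughout, at 1.87 to 2.77 FPKM in Arid1a_Het glands, 4.23 to 5.10 in Ctrl glands and 2.97 to 5.88 in WT glands.

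BiP, the central chaperone of the ER, held 230, 237 and 359 FPKM of Hspa5 in Arid1a_Het glands, 378, 287 and 677 in Ctrl glands and 249, 201 and 318 in WT glands. Ctrl 3 was 1.79 times the next library, the pancreas library Ctrl 1, and the groups Ctrl and WT overlapped, since Ctrl 2 lay below WT 3. Against WT the log2FC in Ctrl was 0.73 (SE 0.33) with adjusted p = 0.155 in limma, and 0.0229 with the block. Hsp90b1 (GRP94), the HSP90 of the ER, held 271, 207 and 312 FPKM in Arid1a_Het glands, 359, 306 and 603 in Ctrl glands and 249, 168 and 299 in WT glands. Here every Ctrl library exceeded every WT library, and the log2FC was 0.80 (SE 0.30), with adjusted p = 0.111 and 0.0135 with the block. Without Ctrl 3 the log2FC was 0.39 for Hspa5 and 0.51 for Hsp90b1, and the block still called Hsp90b1 (adjusted p = 0.0479) but no longer Hspa5 (0.0712). Leaving out the pancreas libraries instead gave a log2FC of 0.81 for Hspa5 and 0.88 for Hsp90b1 in limma (adjusted p = 0.231 and 0.192).

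The other 7 chaperones also had their highest mean in Ctrl. Sdf2l1, a partner of the J protein Dnajb11, held 50.2, 64.3 and 70.8 FPKM in Arid1a_Het glands, 82.0, 72.2 and 125 in Ctrl glands and 55.6, 47.0 and 67.3 in WT glands, with log2FC 0.68 and adjusted p = 0.0896 (0.0246 with the block). Dnajb11 (ERdj3) had log2FC 0.42 and adjusted p = 0.134 (0.0438 with the block). Manf, a secreted and ER-resident protein that binds BiP, held 70.4, 67.8 and 92.7 FPKM in Ctrl and 51.3, 35.9 and 57.1 in WT, without overlap, with log2FC 0.68 and adjusted p = 0.0759 (0.0192 with the block). Creld2, a stress-induced ER protein, set Ctrl 3 apart the most of the 33 genes, at 2.05 times the next library. It held 54.9, 48.7 and 115 FPKM in Ctrl and 34.3, 28.9 and 55.7 in WT, with log2FC 0.81 and adjusted p = 0.144 (0.0133 with the block). Leaving out Ctrl 3 gave a log2FC of 0.43 for Creld2, 0.45 for Sdf2l1, 0.27 for Dnajb11 and 0.54 for Manf. The ER chaperone Hyou1 (GRP170) averaged 60.4 ± 28.0 FPKM in Ctrl and 37.3 ± 6.97 in WT (SD, n = 3), with a block-adjusted p of 0.0398. By contrast Dnajb9 (ERdj4), a J protein that is a direct target of XBP1, ranged from 21.7 to 26.04 FPKM in Ctrl and from 19.2 to 21.4 in WT. Dnajc3 (p58IPK) ranged from 46.5 to 68.2 FPKM in Ctrl and from 35.1 to 49.5 in WT.

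**Figure D3:**
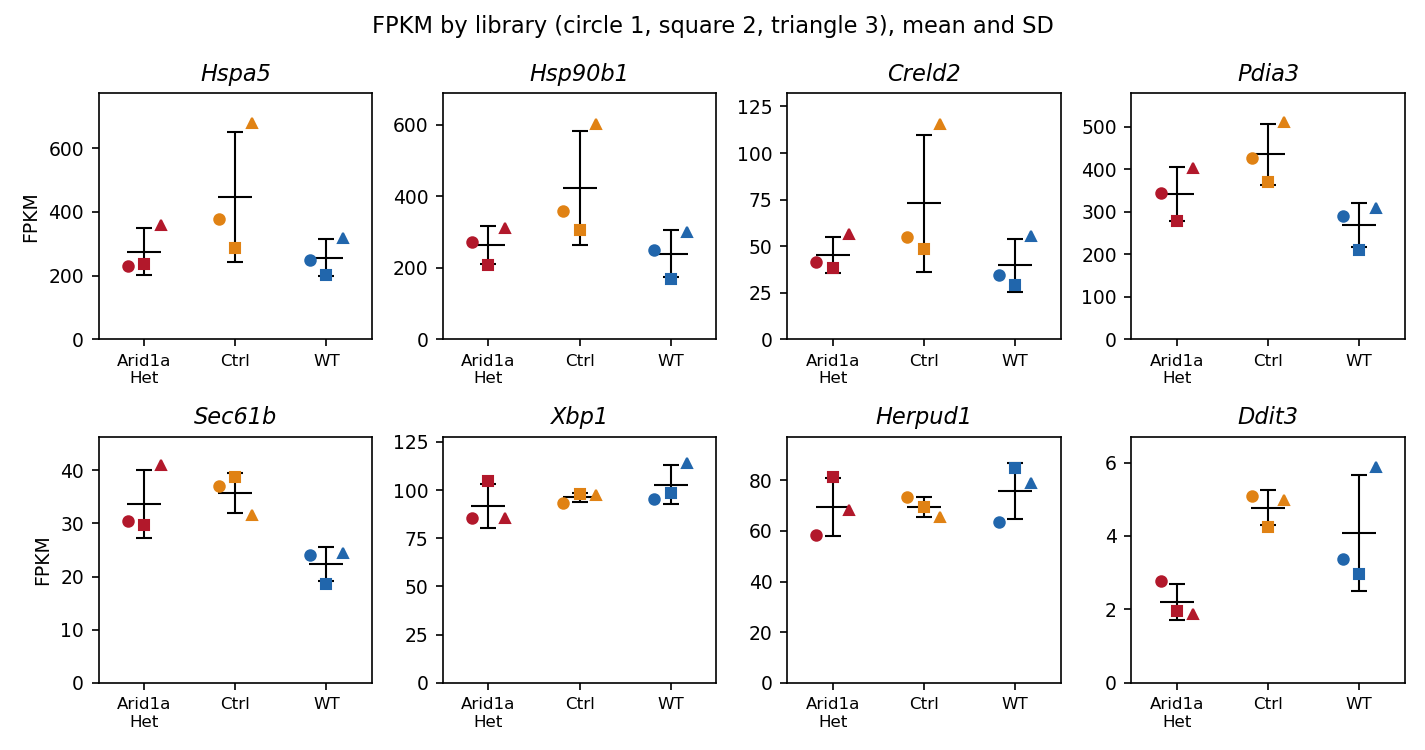
FPKM of 8 genes by library (circle 1, square 2, triangle 3), with group means (long bars) and SD (capped bars), n = 3 libraries per genotype. Hspa5, Hsp90b1 and Creld2 have their highest point in Ctrl 3, Sec61b has no overlap between Ctrl and WT, and Ddit3 has none between Arid1a_Het and Ctrl.

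With the block 3 of the 4 disulfide isomerases passed, as 7 of the 9 chaperones did, while that fit called 16.1% of all genes higher. Together with median-ratio scaling the block called 0 of the 32 genes higher, against 9.63% of all genes. Pdia3 (ERp57), which works on glycoproteins held by calnexin and calreticulin, held 345, 278 and 404 FPKM in Arid1a_Het glands, 426, 369 and 511 in Ctrl glands and 291, 211 and 308 in WT glands. Every Ctrl library lay above every WT library, and the log2FC of 0.69 (SE 0.21) had adjusted p = 0.0684, and 0.0125 with the block. Pdia4 (ERp72) and Pdia6 (P5) were likewise without overlap, with log2FC 0.73 and 0.72, adjusted p = 0.106 and 0.0780, and 0.0157 and 0.0114 with the block. When Ctrl 3 was left out, the log2FC was 0.57 for Pdia3, 0.44 for Pdia4 and 0.55 for Pdia6. P4hb, the founding isomerase and also a subunit of collagen prolyl hydroxylase, was level at 651 ± 123 FPKM in Arid1a_Het glands, 634 ± 90.6 in Ctrl glands and 621 ± 28.2 in WT glands (SD, n = 3). Of the lectins, Calr held 463, 501 and 671 FPKM in Arid1a_Het glands, 542, 515 and 823 in Ctrl glands and 378, 449 and 419 in WT glands, with log2FC 0.56 and adjusted p = 0.124 between Ctrl and WT, and log2FC 0.35 without Ctrl 3. Canx averaged 187 ± 40.0 FPKM in Ctrl and 151 ± 15.0 in WT, and its groups overlapped.

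Sec61b, the beta subunit of the channel through which new proteins enter the ER, held 30.4, 29.6 and 40.9 FPKM in Arid1a_Het glands, 37.0, 38.8 and 31.6 in Ctrl glands and 24.0, 18.6 and 24.4 in WT glands. It lay higher in Ctrl than in WT with log2FC 0.66 (SE 0.17) and adjusted p = 0.0443. That call was lost in 14 of 24 other settings, with adjusted p between 0.0283 and 0.184, among them each fit without the block that left out a Ctrl or WT library, with adjusted p = 0.0851 without Ctrl 3. The block without Ctrl 3 kept it (adjusted p = 0.0328). Of the 50-base stretches of its transcript, 41.0% also occur in other annotated genes, such as Gm10320, so the reads may be divided between copies. The channel subunit Sec61a1 ranged from 57.9 to 67.4 FPKM in Ctrl and from 49.1 to 51.2 in WT, and 14.6% of its stretches are shared.

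None of the 7 degradation genes passed, with or without the block. Their median log2FC in Ctrl against WT was 0.08, below that of all genes (0.24), while the 9 chaperones had a median of 0.68 and the 4 isomerases 0.71. After median-ratio scaling the medians were -0.18 for degradation, 0.42 for chaperones and 0.44 for isomerases, beside 0.01 for all genes, so the sign of the degradation genes turned with the scaling. Without Ctrl 3 the chaperones had a median of 0.39 and the isomerases of 0.49, beside 0.25. Herpud1, which assembles the retrotranslocation complex, held 58.5, 81.4 and 68.4 FPKM in Arid1a_Het glands, 73.6, 69.6 and 65.6 in Ctrl glands and 63.5, 85.0 and 78.7 in WT glands. Edem1, which marks glycoproteins for disposal, held 20.5, 17.5 and 23.1 FPKM in Ctrl and 21.6, 28.3 and 22.6 in WT. Sel1l and Syvn1, the adaptor and the ubiquitin ligase of the HRD1 complex, parted from each other: Sel1l averaged 28.2 ± 4.81 FPKM in Ctrl and 30.5 ± 1.95 in WT, while Syvn1 averaged 18.7 ± 6.50 FPKM in Ctrl, with 26.1 in Ctrl 3, and 13.3 ± 2.03 in WT (SD, n = 3). Derl1 averaged 30.1 ± 1.43 FPKM in Ctrl and 28.4 ± 2.80 in WT. Derl2 averaged 9.71 ± 1.04 FPKM in Ctrl and 7.98 ± 0.929 in WT, with every Ctrl library above every WT library (log2FC 0.26, adjusted p = 0.271). Derl3 was erratic within each genotype, from 0.592 to 4.36 FPKM in Arid1a_Het glands, 1.55 to 3.93 in Ctrl glands and 0.548 to 5.32 in WT glands.

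None of the tested targets of ATF4 and CHOP passed. Chac1 held 1.13, 1.12 and 1.09 FPKM in Arid1a_Het glands, 0.216, 0.373 and 0.520 in Ctrl glands and 0.447, 1.67 and 1.34 in WT glands, with log2FC -0.61 and adjusted p = 0.112 between Ctrl and WT. Ctrl 3 lay above WT 1, so the groups overlapped, and the call was made once WT 1 was left out (adjusted p = 0.0298). Asns, the asparagine synthetase gene, held 80.8, 84.6 and 73.8 FPKM in Arid1a_Het glands, 70.8, 73.1 and 48.1 in Ctrl glands and 74.5, 49.2 and 69.2 in WT glands, and Ctrl 3 was the lowest library of all. Trib3 stayed between 0.447 and 1.07 FPKM and was left out by the filter on low values.

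Counted over the 32 genes, all Ctrl libraries lay above all WT libraries for 14 genes (43.8%), against 33.5% of all tested genes, and for 0 genes was the order reversed, against 10.2%. Without Ctrl 3 the same 14 stood apart, against 43.3% of all genes, and 2 were lower (6.25%, against 11.4%), Edem1 and Chac1. After median-ratio scaling the counts were 5 higher (15.6%, against 20.6%), namely Atf4, Manf, Pdia3, Pdia6 and Sec61b, and 2 lower (6.25%, against 21.7%), Atf6 and Xbp1. At an unadjusted p under 0.05, 12 genes were higher (37.5%, against 23.7%) and Chac1 was lower (3.12%, against 8.44%). Without Ctrl 3 these were 3 higher, Manf, Pdia3 and Sec61b (9.38%, against 16.7%), and Chac1 lower (3.12%, against 5.75%). The median log2FC of the 32 was 0.36 as deposited, beside 0.24 for all genes, and 0.12 beside 0.01 after the scaling. Without Ctrl 3 it was 0.25, beside 0.25 for all genes.

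**Figure D4:**
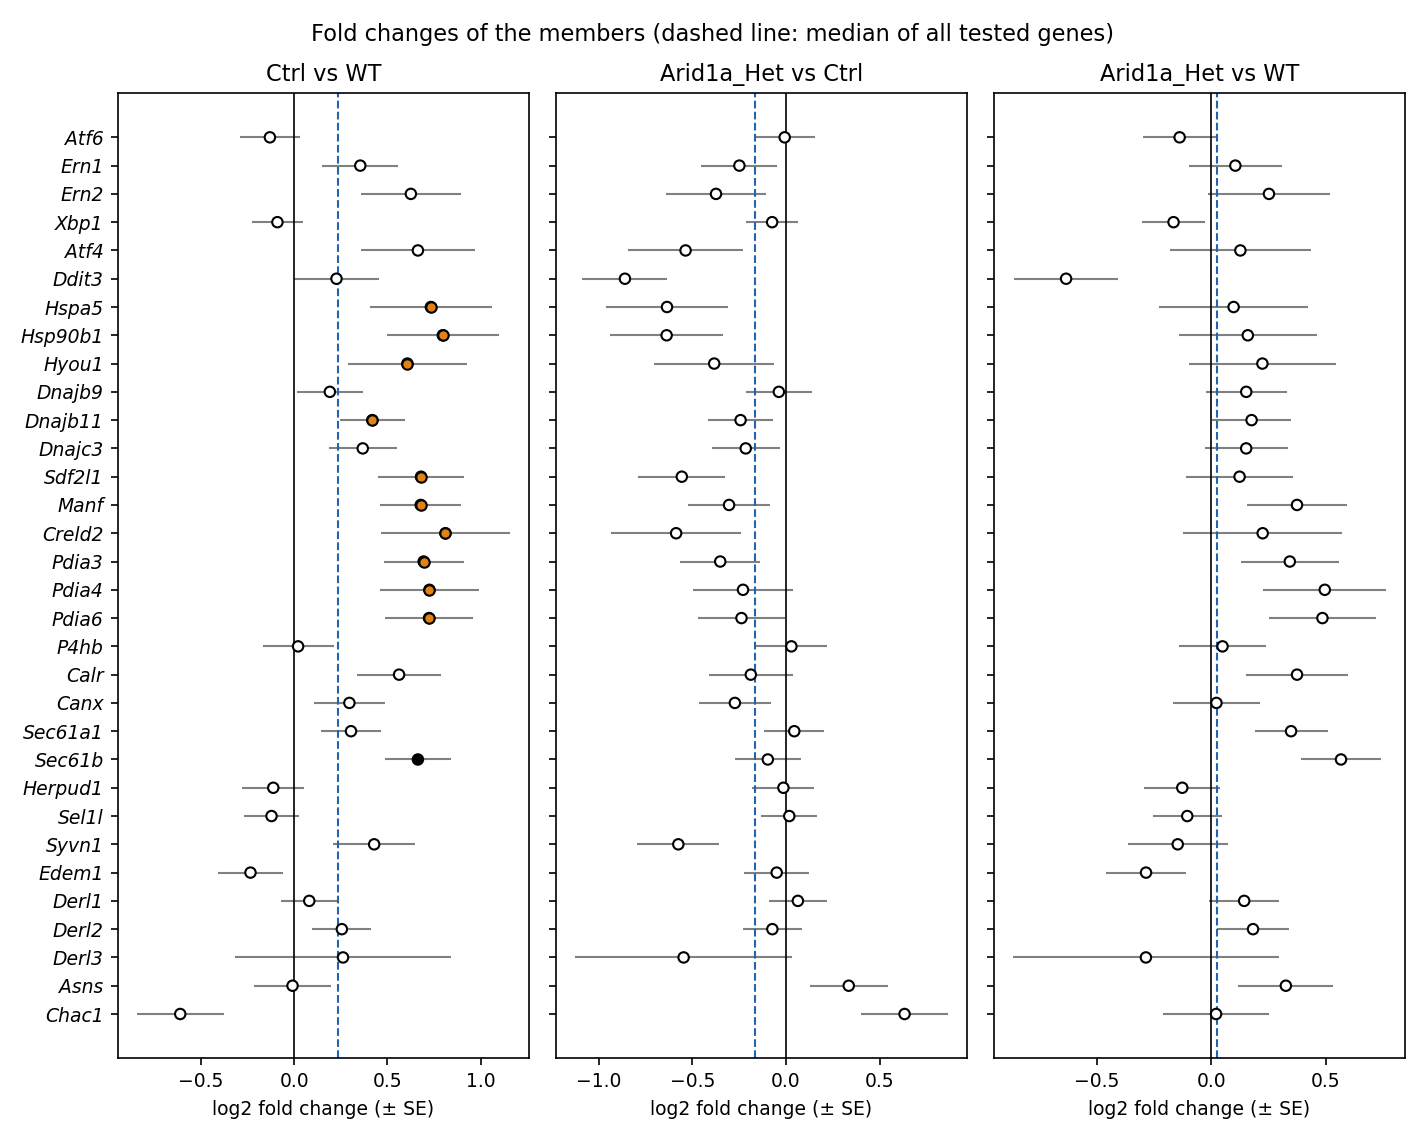
log2FC with SE of the 32 tested genes (rows) in the 3 comparisons; the solid line is 0 and the dashed line the median of all 11209 tested genes. Filled black marks an adjusted p under 0.05 in limma (Sec61b in Ctrl against WT), orange one reached with the replicate block alone (10 further genes, Ctrl against WT), and open circles neither.

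The comparison of Arid1a_Het with Ctrl asks what differs when a copy of Arid1a is also lost. In limma 0 of the 32 genes passed as higher and 0 as lower, against 0% and 0.00892% of all genes. At an unadjusted p under 0.05, 3 genes were lower and 1 was higher (9.38% and 3.12%, against 10.5% and 1.15% of all genes). Ddit3 was the lowest in p of the 3, at 2.77, 1.96 and 1.87 FPKM in Arid1a_Het, against 5.10, 4.23 and 4.99 in Ctrl, with log2FC -0.86 (SE 0.23) and adjusted p = 0.352. Ddit3 rested on 93 to 136 reads in Arid1a_Het libraries and 198 to 231 in Ctrl libraries. Syvn1 was next, at 12.0, 11.8 and 11.6 FPKM in Arid1a_Het, against 16.1, 14.0 and 26.1 in Ctrl (log2FC -0.57, adjusted p = 0.404), and Sdf2l1 had log2FC -0.56 and adjusted p = 0.412. The log2FC without Ctrl 3 was -0.32 for Syvn1 and -0.33 for Sdf2l1, while Ddit3 was at -0.83. For these 3 genes all Arid1a_Het libraries lay below all Ctrl libraries (9.38%, against 22.2% of all genes), and after median-ratio scaling for Ddit3 alone (3.12%, against 9.98%).

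Chac1 and Asns were the genes with all Arid1a_Het libraries above all Ctrl libraries (6.25%, against 2.41% of all genes). Chac1 had log2FC 0.63 and adjusted p = 0.403, and the mean FPKM in Arid1a_Het was 3.02 times that in Ctrl. The chaperones had a median log2FC of -0.38 and the isomerases of -0.23, beside -0.16 for all genes. After median-ratio scaling these were -0.17 and -0.01, beside 0.03. Without Ctrl 3 the chaperones were at -0.16 and the isomerases at -0.0035, beside -0.19 for all genes. Hspa5 averaged 275 ± 72.7 FPKM in Arid1a_Het and 447 ± 204 in Ctrl (SD, n = 3), but the highest Arid1a_Het library exceeded Ctrl 2. For the 32 genes the median log2FC was -0.23.

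Arid1a_Het against WT sets both changes against wild type glands. Again 0 of 32 genes passed in either direction in limma, against 2.06% of all genes higher and 0.687% lower. All Arid1a_Het libraries lay above all WT libraries for Pdia4, Calr, Sec61a1 and Sec61b (12.5%, against 10.6%) and below for Ddit3 (3.12%, against 8.57%). Pdia4 held 104, 111 and 161 FPKM in Arid1a_Het, against 84.6, 75.8 and 103 in WT, where Arid1a_Het 1 and WT 3 lie close. At an unadjusted p under 0.05, Sec61b was higher (log2FC 0.57, adjusted p = 0.129) and Ddit3 was lower (log2FC -0.63, adjusted p = 0.188), which is 3.12% each, against 9.81% and 7.38% of all genes. For Ddit3 the Arid1a_Het libraries lay below the 6 others, so it was low against either genotype, though neither comparison passed. Its highest Arid1a_Het and lowest WT libraries lie close, and leaving out WT 3 gave log2FC -0.39 (limma, adjusted p = 0.435). The share of all genes below the 6 others in this way was not counted. The median log2FC of the 32 genes was 0.15, beside 0.02 for all genes, and that of the isomerases 0.41 (0.37 after median-ratio scaling). The 3 comparisons share libraries, so their values are not independent of each other.

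The relation to chief cell RNA was read from 4 marker genes, Pgc, Pga5, Gif and Chia1. In Ctrl against WT, 1 of these had a log2FC above 0, and their median was -1.565. Their mean log2(FPKM + 1) is the chief cell level of each library, a measure of RNA and not of cell number. It was 8.23, 10.9 and 7.53 in Arid1a_Het glands, 7.50, 9.51 and 7.75 in Ctrl glands and 8.61, 11.3 and 10.4 in WT glands. The genes did not stand out from all genes in this relation: r was negative for 25 of 32 (78.1%), against 74.3% of all tested genes, with a median r of -0.52 beside -0.51, and positive for the other 7 (21.9%, against 25.7%). After median-ratio scaling r was negative for 17 (53.1%, against 52.1%) and positive for 15 (46.9%, against 47.9%), with a median r of -0.09 beside -0.05. After adjustment over all genes, 1 of the 32 relations passed with a negative r, that of Pdia3 (3.12%, against 11.5% of all tested genes), and 0 passed with a positive r, against 3.85%. Its Pearson r was -0.834 (exact permutation p = 0.00436, adjusted 0.0399), and Spearman's rho was -0.867 (exact permutation p = 0.00451, adjusted 0.0656). Without Arid1a_Het 2 and WT 2, the libraries farthest from the median chief cell level, r for Pdia3 was -0.644, and with genotype means removed it was -0.799. After median-ratio scaling it was -0.696 (exact permutation, adjusted p = 0.116), and 0 genes then passed with a negative r, against 5.76%. The count of genes called with a negative r also moved when Ctrl 3, Ctrl 1, WT 2, WT 3 or any Arid1a_Het library was left out. It then ran from 0 to 3, and where it was 0 the call of Pdia3 was lost.

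Xbp1 and Herpud1 leaned the other way. As deposited, r with the chief cell level was 0.706 for Xbp1 (exact permutation p = 0.0328, adjusted 0.101; rho 0.783, exact permutation p = 0.0172) and 0.753 for Herpud1 (exact permutation p = 0.0241, adjusted 0.0860; rho 0.600, exact permutation p = 0.0968). After median-ratio scaling both passed, with r 0.941 (exact permutation, adjusted p = 0.0193) for Xbp1 and 0.871 (exact permutation, adjusted p = 0.0321) for Herpud1, which makes 2 of 32 genes (6.25%), against 9.71% of all genes. Leaving out Arid1a_Het 2 and WT 2, r as deposited was 0.790 for Xbp1 and 0.438 for Herpud1, so the relation of Herpud1 leaned on those libraries more. With genotype means removed, r was 0.714 and 0.742 for Xbp1 and Herpud1. The factors of the median-ratio scaling were lowest in WT 2 (0.771) and Arid1a_Het 2 (0.857), the libraries of highest chief cell level. Dividing by them raises all genes there relative to the other libraries. XBP1 is known as the factor that builds the secretory apparatus of zymogen cells, but its action in these glands was not tested. Parietal and pit cell markers also moved between these libraries, and their part in these relations was not tested.

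Within genotypes, a slope on the chief cell level was called for 0 of 32 genes in either direction in limma, against 1.08% of all genes rising and 0.482% falling. Derl3, the derlin of secretory cells, had the steepest slope of the 32, 0.48 log2 units per unit of chief cell level (SE 0.13, adjusted p = 0.0942). Without WT 3 it passed, with adjusted p = 0.0356. Derl3 held 4.36 FPKM in the Pgc-rich Arid1a_Het 2, against 0.732 and 0.592 in the other Arid1a_Het libraries. It held 5.32 in WT 3, but 1.73 in WT 2, the library with the highest chief cell level. Pdia3 had a slope of -0.15 (SE 0.05, adjusted p = 0.144). With the replicate block the slopes were 0.96 for Derl3 (adjusted p = 0.131) and -0.04 for Pdia3 (adjusted p = 1), and after median-ratio scaling that of Pdia3 was -0.06. The slope of the low gene Derl3 was 0.78 with a pseudocount of 0.01. With the chief cell level added to the genotype comparisons 0 of the 32 genes were called in any of the 3, against 0% of all genes higher and 0.0178% lower in Arid1a_Het against Ctrl, 2.86% and 1.17% in Ctrl against WT and 2.36% and 1.18% in Arid1a_Het against WT.

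**Figure D5:**
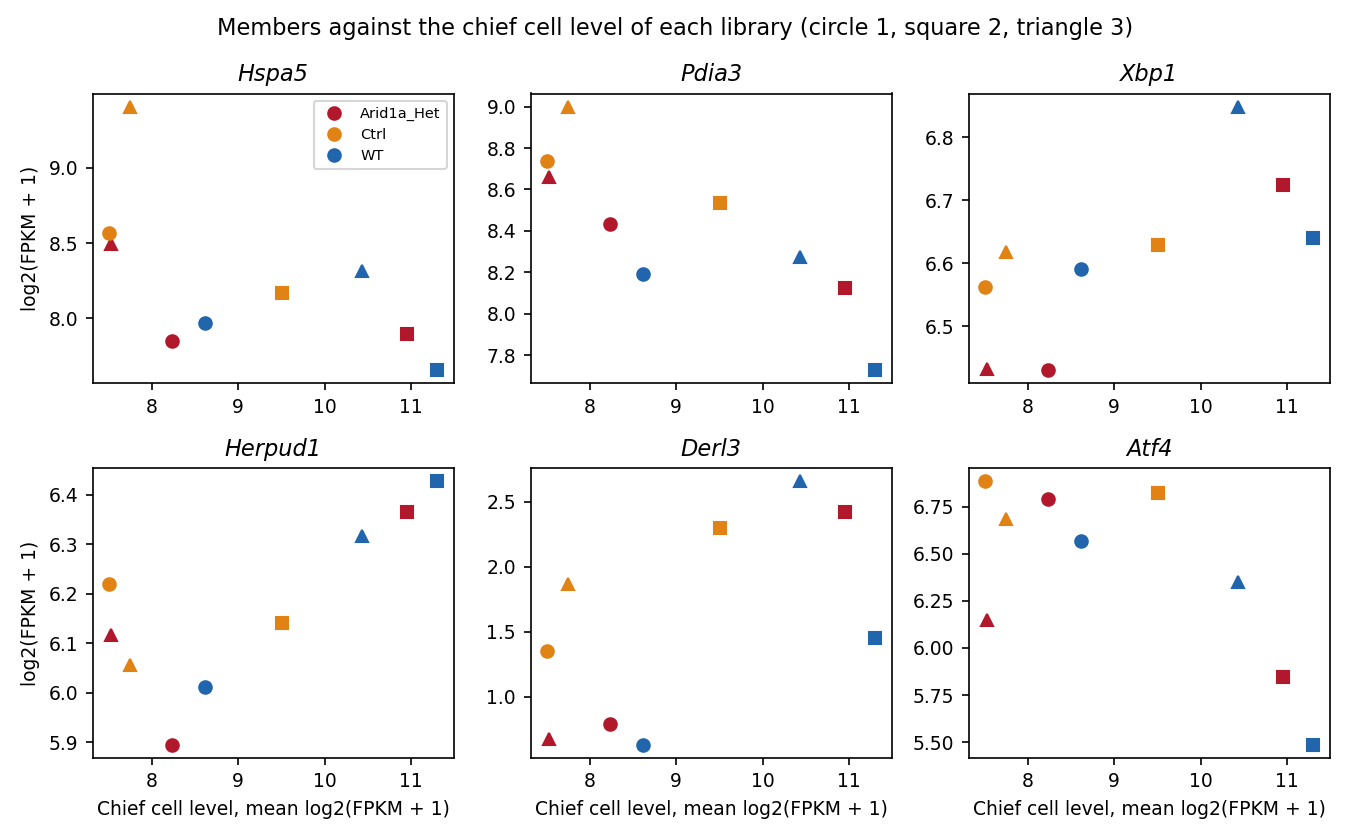
log2(FPKM + 1) of 6 genes against the chief cell level of each library (mean log2(FPKM + 1) of 4 chief cell genes), coloured by genotype, with the shape giving the library number. Pdia3 slopes down (r -0.834), Xbp1 (0.706) and Herpud1 (0.753) slope up, and the Ctrl 3 triangle of Hspa5 stands off from the other libraries.

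How far the genes moved together was measured by correlating each gene with Hspa5 across the 9 libraries, a measure added after the data had been seen. Of the 10 genes most like Hspa5 among 11208, 7 were from the list: Creld2 (r 0.973), Dnajb11 (0.965), Sdf2l1 (0.962), Hyou1 (0.960), Canx (0.958), Hsp90b1 (0.954) and Dnajc3 (0.950). None of the 11208 passed the adjustment, with adjusted p = 0.144 for Creld2 and 0.0927 for Dnajc3 by exact permutation, where rho was 0.883 and 0.933. That order leaned on Ctrl 3: without it, 0 of the 10 most alike were from the list, and these 7 ranked between 17 (Dnajb11) and 80 (Hsp90b1), with r from 0.885 (Hsp90b1) to 0.922 (Dnajb11). Without Ctrl 3 and WT 2, the libraries farthest from the median of Hspa5, r was 0.880 for Creld2, 0.901 for Dnajb11 and 0.956 for Dnajc3. After median-ratio scaling r lay between 0.817 (Canx) and 0.960 (Creld2) for these 7. The degradation genes were spread over the order, with Syvn1 at rank 78 (r 0.880, and 0.583 without Ctrl 3) and Derl2 at 120 (0.864, and 0.853), but r between -0.25 (Herpud1) and 0.28 (Derl1) for the other 5. Low values also fell to Xbp1 (-0.03), Atf6 (-0.18), Asns (-0.42) and Chac1 (-0.47).

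The same order was read by the elements in the promoters. Of the 10 genes besides Hspa5 with an ERSE or ERSE-II, 7 ranked within the first 100 in likeness to Hspa5 and 8 had their highest value in Ctrl 3, with a median r of 0.916. Of the 15 tested genes whose promoters held neither, 2 ranked so high and 5 had their highest value in Ctrl 3, with a median r of 0.471. Hyou1 (rank 5, r 0.960) and Manf (rank 79, r 0.879) had no promoter in the set and stand in neither group. Among all tested genes, 23.8% had their highest value in Ctrl 3. By definition 100 of the 11208 genes compared rank within the first 100. How genes outside the list with these elements ranked was not counted. Without Ctrl 3, 5 of the 10 and 1 of the 15 ranked within the first 100, with a median r of 0.867 for the 10 and 0.362 for the 15. Exceptions stood on both sides. Herpud1 holds ERSE-II and Derl3 holds ERSE, but neither followed Hspa5, with r -0.25 and 0.13. Sdf2l1 and Pdia4 followed Hspa5 with r 0.962 and 0.907 and held no exact match to either element within these 300 bases. These counts describe the genes, carry no test and were not repeated after median-ratio scaling.

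Other genes of the pathway that were not on the list, 132 tested of 139 in the table, were also counted, from lists made with earlier results of these data known. In Ctrl against WT, 9 were higher and 1 was lower in limma (6.82% and 0.758%, against 7.01% and 3.04% of all genes). With the block 16 were higher and 1 was lower (12.1% and 0.758%, against 16.1% and 5.97%), so these genes were called no more often than genes in general. By list, 1 of 15 sensors and proteases, 4 of 25 genes of the ATF4 branch, 3 of 20 folding genes, 1 of 29 genes of import and glycosylation, 0 of 17 degradation genes and 0 of 26 genes of transport to the Golgi passed as higher. Sec11c, a catalytic subunit of signal peptidase, held 32.1, 47.2 and 37.2 FPKM in Arid1a_Het glands, 46.7, 43.3 and 54.3 in Ctrl glands and 23.0, 16.8 and 19.5 in WT glands. Against WT its log2FC was 1.25 in Ctrl (adjusted p = 0.00546), a call kept in all 24 other settings, and 0.93 in Arid1a_Het (adjusted p = 0.0304), lost in 10 of 21.

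The isomerase Pdia5 (log2FC 1.43, adjusted p = 0.0250), the sulfhydryl oxidase Qsox1 (1.15, 0.0334) and the peroxiredoxin Prdx4 (0.86, 0.0398) were the folding genes that rose in Ctrl against WT, and each lost its call in 7 to 12 of 24 other settings. In Arid1a_Het against WT 3 of the 132 were higher and 1 was lower (2.27% and 0.758%, against 2.06% and 0.687%). Qsox1 was among the higher (log2FC 1.43, adjusted p = 0.0304; lost in 11 of 21). The lower gene was Ero1lb, an ER oxidase that drives disulfide formation, named after its values were seen, at 1.51, 2.04 and 1.49 FPKM in Arid1a_Het, against 3.70, 4.24 and 3.14 in WT (log2FC -0.81, adjusted p = 0.0323; lost in 13 of 20). In the ATF4 branch the amino acid transporter Slc7a5 rose in Ctrl (log2FC 0.78, adjusted p = 0.0169) and in Arid1a_Het (1.22, 0.00386), at 15.9, 17.6 and 21.6 FPKM in Arid1a_Het glands, 13.7, 13.5 and 12.4 in Ctrl glands and 6.60, 7.24 and 8.02 in WT glands. The factor Cebpb (log2FC 1.31, adjusted p = 0.0226) and the mTOR inhibitor Ddit4 (1.14, 0.0367) rose in Ctrl, as did the ER-anchored factor Creb3l1 (0.83, 0.0490), whose call was lost in 17 of 24 settings. Gpt2, an alanine aminotransferase of mitochondria, fell in Ctrl to 11.8, 13.4 and 7.03 FPKM, against 42.8, 62.2 and 56.8 in WT (log2FC -2.25, adjusted p = 0.0107, and 0.0536 without Ctrl 3). Of the calls in Ctrl against WT named here, Sec11c aside, all 8 were lost without Ctrl 3, 7 without Ctrl 2, 6 without Ctrl 1 and 3 to 6 without a WT library. In Arid1a_Het against Ctrl 0 of the 132 passed in either direction. Sdc1, a marker of plasma cells that epithelia also make, was at 233 ± 45.1 FPKM in Arid1a_Het glands, 189 ± 19.4 in Ctrl glands and 74.4 ± 7.68 in WT glands, beside the near absence of Jchain given above.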

How the data were processed

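The authors deposited FPKM values, fragments scaled to transcript length and library depth, for 18423 genes in 9 libraries. The submitters' processing notes name the aligner STAR 2.4.2a and the builds GRCm38 and mm10; the tool that made the FPKM values and its treatment of reads with several matches are not given in the sources used here. The kit was a stranded one for mRNA, as the labels' protocols say. Since FPKM is a share, a few very abundant genes, such as Pgc, can lower all others. Groups are the genotypes of the labels. The 33 genes, the other lists and the motifs were chosen with earlier results of these data known.

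The test was limma 3.58.1 (R 4.3.3; lmFit, eBayes with trend) on log2(FPKM + 1), fitting 3 group means to the 9 libraries at once, with two-sided p-values adjusted by Benjamini-Hochberg over 11209 genes that reached an FPKM of 1 in 3 or more libraries; 7214 genes were left out. The fold change on this scale understates that of low genes. The script was tested on simulated data. Correlations have exact permutation p-values over all pairings of the 9 libraries. Whole reads were recovered from the FPKM steps; within 0.01 of a read, all values of all 18423 genes were whole. Same-numbered Ctrl and WT libraries had correlated deviations (0.207, 0.336 and 0.138, each above 0.1), and the block was adopted on the data alone. Arid1a_Het libraries did not pair in this way (-0.151, 0.467 and -0.0202 with Ctrl, 0.252, 0.563 and -0.279 with WT). The block was still fitted over the libraries of every genotype, so Arid1a_Het libraries were grouped by number too and helped set its effects and spread. All 33 genes, up to 4 genes of lowest p in Ctrl against WT of each other list, Arid1a and marker genes were named. Positions and shared 50-base stretches are from GENCODE M21, promoters from RefSeq. Alternatives were other pseudocounts, filters, scalings and fits, the replicate block, limma voom on whole reads, and each library left out; 3 combinations with the block, the likeness to Hspa5 and its values without Ctrl 3 were added after the data were seen.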

Additional observations from a re-analysis of the deposited data

How the results depend on the processing

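In Ctrl against WT the single gene called higher, Sec61b, was called in 10 of 24 alternatives, and the count was 0 with no filter, with median-ratio scaling, without the pancreas libraries, with limma voom and with the chief cell level as a covariate, and 0 to 1 when each library was left out in turn. The replicate block raised it to 11, and in combinations chosen after seeing the data the block gave 0 with median-ratio scaling, 5 without Ctrl 3 and 9 without the pancreas libraries. A count does not say which genes: the last held Ern2 and Atf4 and not Sec61b. The count of genes lower, 0, was 1 (Atf6) with quantile normalization and with the block and median-ratio scaling, and 0 to 1 when libraries were left out (Chac1 without WT 1). Both comparisons with Arid1a_Het gave 0 in all 21 alternatives, the block among them. The count rising with the chief cell level within genotypes was 0 to 1 (Derl3 without WT 3). For the correlation with the chief cell level, the count of positive calls was 2 with median-ratio scaling, against 0 in the other settings, and the count of negative calls, 1, was 0 with median-ratio scaling, with quantile normalization and without the pancreas libraries, 2 with Pgc alone as the measure, and 0 to 3 when libraries were left out. The cause of these shifts was not tested. No fold change or slope named with its p changed sign, Derl2 aside, which was not followed through the alternatives. Depth limits Chac1, Derl3 and Trib3, which rest on few reads.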

Other observations

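Cytosolic heat shock genes stood beside the ER chaperones in likeness to Hspa5, a pattern noticed in the data and given as a description. The gene most like Hspa5 was Slc5a3, a myo-inositol transporter known for its response to osmotic stress, with r 0.982 over the 9 libraries (exact permutation, adjusted p = 0.0618; rho 0.983) and 0.990 without Ctrl 3 and WT 2. It held 0.745, 0.664 and 1.55 FPKM in Arid1a_Het glands, 1.61, 1.05 and 4.97 in Ctrl glands and 0.864, 0.647 and 1.29 in WT glands. Among the 20 genes of highest r were Hsph1, Hspa4l, Dnaja1 and Hsp90aa1, chaperones of the cytosol, and Arc, an immediate early gene. Hsph1 held 69.4 FPKM in Ctrl 3, against 5.84 to 23.1 in the other 8 libraries, and Hsp90aa1 held 65.3 in Ctrl 3, against 14.3 to 29.8. Without Ctrl 3 and WT 2 the r of Hsph1 was 0.778 and that of Hsp90aa1 0.693, lower than the 0.880 of Creld2. Without Ctrl 3 alone Slc5a3 stayed first, with r 0.982, while Hsph1 was at rank 215 and Hsp90aa1 at 733 of 11208.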
